A study of Homo sapiens with 8 samples.

Results

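The genes described here lie side by side on the long arm of human chromosome 14, between 50 and 92 Mb of GRCh38. They are the 174 protein-coding genes whose start falls in this window and whose mean over 8 libraries was at least 5 CPM (the count of a gene scaled to a common library total), FOS left out. The window holds 257 protein-coding genes without FOS, and the count table holds 58302 genes in all. The window was chosen because 3 of its genes, LGALS3, PELI2 and RPS6KA5, had stood higher in DDR1 tumours with a like pattern over libraries. Their difference between the groups, their like pattern, and the difference of the window as a whole are therefore descriptions with no test. The question was whether the neighbours shift together, as genes do with a change in copy number. DNA was not measured.

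The RNA came from xenograft tumours in mice of the established bladder cancer line T24, which is human. The 4 DDR1 libraries came from T24 cells with enforced expression of DDR1, a receptor tyrosine kinase activated by collagen, and the 4 control libraries from T24 cells labelled control. The labels do not name the vector, the host strain, the age of the tumours or whether the cells were a single clone. Whether each library stands for its own animal is not in the labels, so any p measures the spread between libraries only. DDR1 replicates 2, 3 and 4 have 1 title prefix in common, as have control replicates 3 and 4, whose prefix extends that of control replicate 2. What the prefixes stand for is not given in the labels. Totals ran from 13716285 to 32271031 expected counts, and the lowest member held 1077 counts over the 8 libraries. DDR1 mRNA stood at 159, 343, 427 and 810 CPM in DDR1 replicates 1 to 4, against 138, 110, 210 and 149 CPM in control replicates 1 to 4. The library labelled DDR1 replicate 1 thus lay inside the control range. It was kept in the DDR1 group as labelled, and whether its label holds was not tested. The log2 fold change of DDR1 was 1.52, with an exact two-sided permutation p of 0.0571 (4 against 4 libraries allow no p below 0.0286). All DDR1 titles name lane 8, whereas 2 control titles name lane 7 and 2 name none, so lane and group cannot be told apart.

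A gain or loss of a chromosome changes the number of templates of every gene on it, and the mRNA of many of those genes follows. LGALS3 encodes galectin 3, a lectin that binds galactose-containing sugars on cell surface and matrix glycoproteins. PELI2 encodes a ubiquitin ligase of the Pellino family, which acts on IRAK kinases below interleukin 1 and Toll-like receptors. RPS6KA5 encodes MSK1, a nuclear kinase that is switched on by ERK and p38 and phosphorylates CREB and histone H3.

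The sequences just before the starts of these 3 genes are shown because they are the genes that led to the window. RefSeq's table (GRCh38.p14) gives the 250 bases before each start, and the stretch printed is the longest part of it that lies in no exon of GENCODE 29, 5′ to 3′ on the strand of the gene. Capitals mark GC boxes (GGGCGG) and CCAAT boxes (CCAAT), read on both strands.
LGALS3: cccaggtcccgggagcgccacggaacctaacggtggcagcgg
PELI2: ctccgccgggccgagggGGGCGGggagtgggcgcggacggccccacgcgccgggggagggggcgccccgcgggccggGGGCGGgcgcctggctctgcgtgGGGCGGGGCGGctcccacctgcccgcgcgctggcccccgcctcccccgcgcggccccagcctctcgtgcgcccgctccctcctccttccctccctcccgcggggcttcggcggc
RPS6KA5: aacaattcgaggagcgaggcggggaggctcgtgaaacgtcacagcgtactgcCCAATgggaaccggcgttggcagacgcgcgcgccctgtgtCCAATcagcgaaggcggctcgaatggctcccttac
The LGALS3 stretch is chr14:55129002-55129043 on the plus strand, and the PELI2 stretch is chr14:56118161-56118374 on the plus strand. RefSeq starts LGALS3 at 55129252 and PELI2 at 56118411, inside the longer spans that GENCODE gives both, so neither stretch lies before the GENCODE start. The RPS6KA5 stretch is chr14:91060705-91060831 on the minus strand. The PELI2 stretch held 4 GC boxes, of which the last pair shares a base, and the RPS6KA5 stretch held 2 CCAAT boxes. The full 250 bases held 3 GC boxes for LGALS3 and 4 for PELI2, whereas those of RPS6KA5 held 2 GC boxes and 3 CCAAT boxes. None of the 3 held a TATA box (TATAAA), an AP-1 site (TGANTCA) or a CRE site (TGACGTCA). Over the 150 members of 174 with a RefSeq promoter, 65.3% held a GC box, against 68.8% of 8447 promoters of protein-coding genes of at least 5 CPM on other chromosomes. A CCAAT box stood in 36.0% of members' promoters and in 35.6% of the others. The other letters were uncommon in both sets. A TATA box stood in 2.0% of members' promoters and 5.14% of the others. An AP-1 site stood in 2.67% and 3.67%, and a CRE site in 2.67% and 2.94%. The median share of G and C was 63.6% in members and 65.2% in the others. Such a match is a run of letters and no measure of binding.

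LGALS3 (ENSG00000131981, chromosome 14, 55124110 to 55145413, plus strand) held 62.4, 51.8, 46.7 and 70.3 CPM in DDR1 replicates 1 to 4, against 31.5, 32, 24.7 and 27.8 CPM in control replicates 1 to 4. Here and below, CPM values given by library are scaled by TMM (trimmed mean of M values). Its mean was 57.8 ± 10.6 CPM in DDR1 tumours and 29 ± 3.42 CPM in controls (SD, n = 4 each). The groups did not overlap, and DDR1 replicates 4 and 1 were the highest. On the log2 scale the DDR1 tumours stood 0.99 above the controls (standard error 0.17).
PELI2 (ENSG00000139946, 56117814 to 56301526, plus strand) held 26.1, 15.8, 12.7 and 30.8 CPM in DDR1 replicates 1 to 4, against 9.19, 7.39, 8.14 and 7.39 CPM in the controls. On the log2 scale the difference was 1.41 (standard error 0.29). DDR1 replicates 4 and 1 again lay above replicates 2 and 3, while the controls were close together.
RPS6KA5 (ENSG00000100784, 90847862 to 91060636, minus strand) held 45.4, 32.9, 28.1 and 54.1 CPM in DDR1 replicates 1 to 4, against 20.1, 21.4, 20.4 and 18.7 CPM in the controls. The log2 difference was 0.99 (standard error 0.22), with no overlap between the groups. The 3 genes put the DDR1 libraries in the same order, 4, 1, 2 and 3 from high to low. They were chosen in part for a like pattern over libraries, so this shared order is a description. The median of the neighbours, given below, was highest in DDR1 replicate 1 instead.

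**Figure D1:**
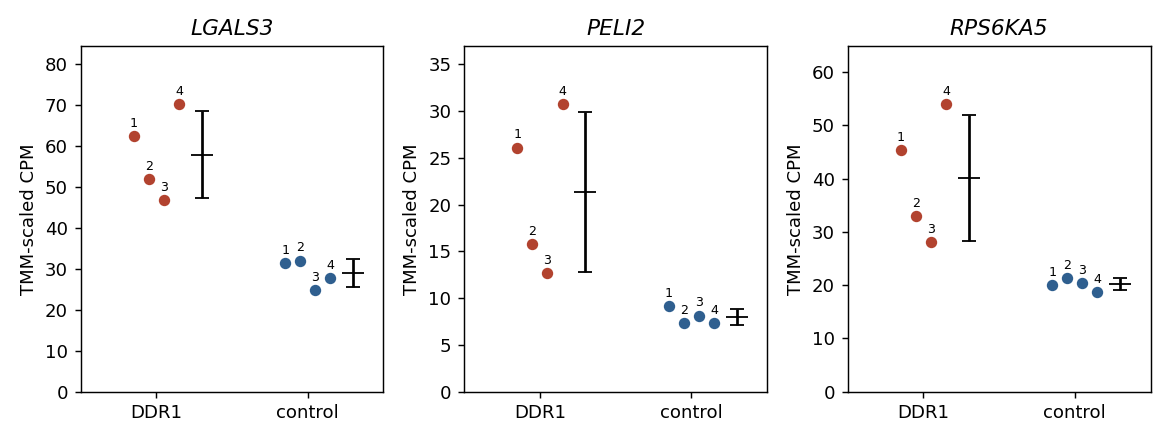
TMM-scaled CPM of LGALS3, PELI2 and RPS6KA5 in each library, DDR1 on the left and control on the right of each panel. Points are libraries with their replicate number, and the bar beside them is the mean ± SD (n = 4). In each panel all DDR1 points lie above all control points, with replicates 4 and 1 on top.

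The neighbours stood higher in DDR1 tumours nearly throughout. Of the 174 members, 165 (94.8%) had a log2 fold change above 0, where 49.5% of the 18973 genes tested did. Without LGALS3, PELI2 and RPS6KA5, 162 of 171 were above 0 and their median was 0.36, with quartiles of 0.25 and 0.48. That median is a 1.29-fold higher level in DDR1 tumours. The 10592 protein-coding genes of other chromosomes at the same minimum level had 49.0% above 0, a median fold of 0.997, and quartiles of -0.15 and 0.14. Most single members did not stand clear of their own error at this size, the median standard error over members being 0.21 on the log2 scale.

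No member was called by edgeR's quasi-likelihood test at a Benjamini-Hochberg adjusted p under 0.05, where 0.0% of all genes were called. At an unadjusted p under 0.05 there were 45 members, all higher in DDR1 tumours, with 1.93% of all genes tested being higher and 2.24% lower at that level, and 4.17% in either direction. That count of members was 23 without the library labelled DDR1 replicate 1, where 4.76% of all genes passed in either direction. It was 24 without DDR1 replicate 4 (2.56% of all genes) and 25 without control replicate 3 (4.98%). Without the 2 controls that name no lane it was 12 (2.97% of all genes), and the members' median log2 fold change was 0.28. Without the 2 controls of lane 7 it was 58 (5.61%), and the median was 0.51. Leaving out DDR1 replicate 1 alone gave a members' median of 0.29 and 162 of 174 members above 0. DESeq2 called 3 members, LGALS3, PELI2 and RPS6KA5, where it called 0.0899% of all genes. Those 3 are 3 of the 16 genes it called, and limma-voom and limma-trend called 0. In limma-voom 45 members had an unadjusted p under 0.05, where 3.89% of all genes did. The groups did not overlap for 37 members, all higher in DDR1 tumours, with 1.27% of all genes tested being higher without overlap and 1.13% lower. Because the window was chosen on this contrast, these counts stand as descriptions.

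**Figure D2:**
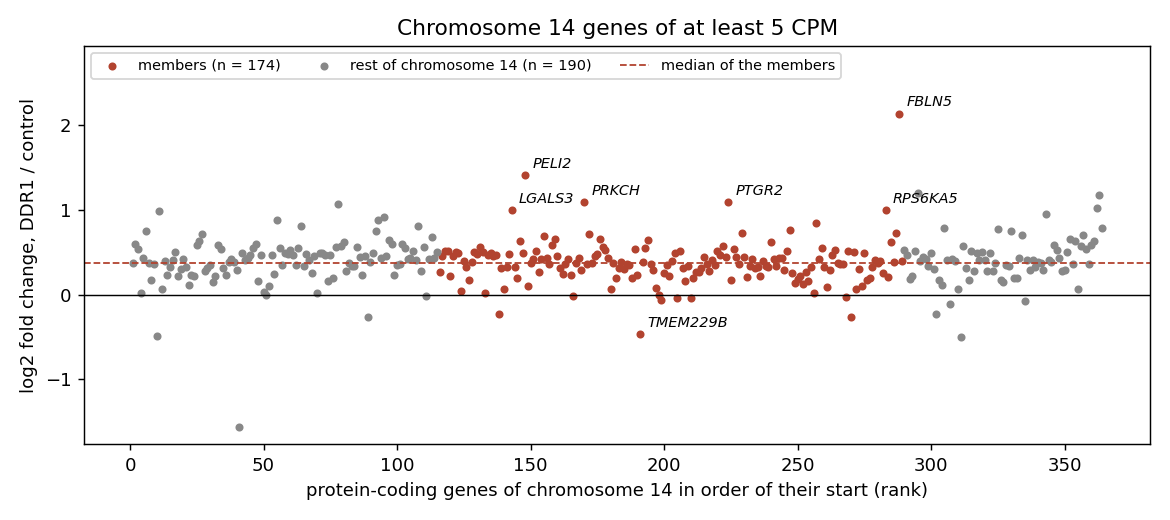
log2 fold change (DDR1 over control) of the 364 protein-coding genes of chromosome 14 with at least 5 CPM, FOS left out, against their rank by start. Red points are the 174 members, grey points the other 190 genes, and the dashed line is the members' median of 0.37. The points lie around that line on both sides of the window as well as in it.

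Values as high lay beyond the edges of the window. The other 190 genes of chromosome 14 at the same level had a median log2 fold change of 0.41, and 181 of them were above 0. The 115 genes before the window had a median of 0.42 and the 75 genes after it 0.40. Inside the window, with the 3 genes left out, medians of 6 bins of 7 Mb ran from 0.32 in the third bin to 0.45 in the first, and the fifth bin, at 0.36, held 4 genes. By distance from the 3 genes the medians lay close together. Neighbours within 1 Mb of LGALS3, PELI2 or RPS6KA5 had a median of 0.39 (23 genes), those 2 to 5 Mb away 0.42 (38 genes) and those more than 10 Mb away 0.34 (81 genes). The medians were also alike by level (0.38, 0.36 and 0.37 in the low, middle and high range of 57 genes each), by strand (0.37 on plus, 0.36 on minus) and by exonic length (0.37 up to the median, 0.36 above it).

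The size of the shift differed between libraries. For each library, the median over the 171 neighbours was taken of log2 CPM less the gene's mean over the controls. It was 0.61, 0.25, 0.21 and 0.45 in DDR1 replicates 1 to 4, against 0.09, 0.12, -0.28 and 0.07 in control replicates 1 to 4. The groups did not overlap, but the gap between DDR1 replicate 3 and control replicate 2 was small beside the spread within each group. The mean of these medians was 0.38 ± 0.19 in DDR1 tumours, and the SD among the controls was also 0.19 (n = 4 each, the controls being centred near 0 by construction). From control replicate 3 to DDR1 replicate 1 the median level differed 1.86-fold. Pooled over the 10592 genes of all other chromosomes, the same medians stayed between -0.04 and 0.07. TMM scaling holds a median over most genes near 0, so nothing is read from that. Single other chromosomes had library medians from -0.56 (chromosome 2) to 0.52 (chromosome 22), both in DDR1 replicate 4.

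**Figure D3:**
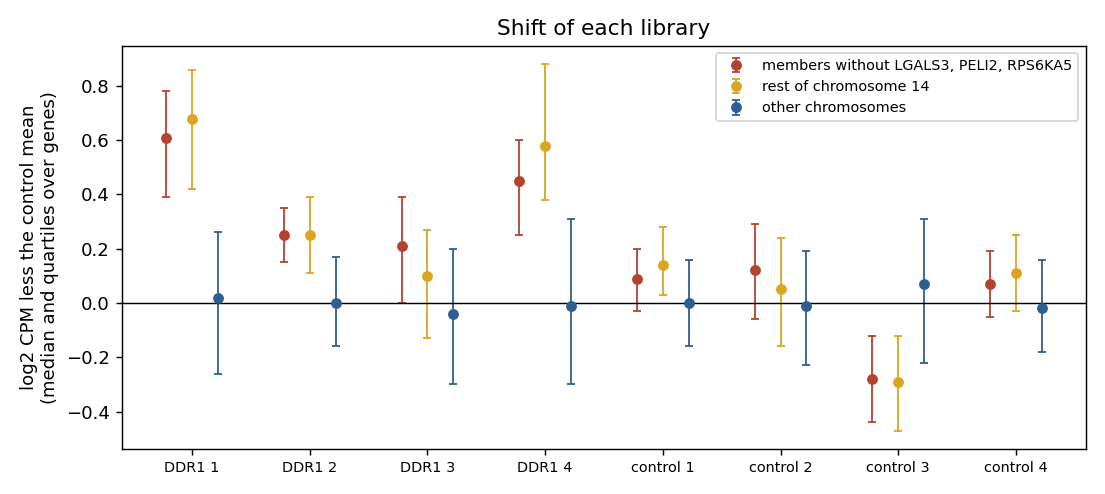
Median over genes of log2 CPM less the gene's mean over the controls, in each library, DDR1 libraries on the left. Points are medians and bars reach from the lower to the upper quartile over genes. Shown are the members without LGALS3, PELI2 and RPS6KA5 (red), the rest of chromosome 14 (yellow) and the other chromosomes pooled (blue). DDR1 replicate 1 is highest at 0.61 and control replicate 3 lowest at -0.28 among the red points.

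Along the window, the medians of the 6 bins differed within each library, and these differences were not tested. In DDR1 replicate 1 the medians of the 6 bins lay between 0.52 and 0.66, with 0.70 for chromosome 14 genes before the window and 0.62 after it. In DDR1 replicate 4 the bins lay between 0.39 and 0.50, with 0.57 before the window and 0.61 after it. In DDR1 replicate 3 they lay between 0.09 and 0.32, with 0.10 on either side. In control replicate 2 they lay between 0.01 and 0.27, highest in the first bin. In control replicate 3 every bin was below 0, between -0.40 and -0.19, with -0.29 before the window and -0.31 after it. The -0.40 was that of the fifth bin, which held 4 genes. In DDR1 replicate 2 the bins lay between 0.20 and 0.32. They lay between 0.04 and 0.18 in control replicate 1 and between 0.01 and 0.15 in control replicate 4.

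Across libraries, the order of the neighbours' medians was not that of DDR1 mRNA, and a link between them was not tested. The library labelled DDR1 replicate 1, with 159 CPM of DDR1, had the highest median of the neighbours, and DDR1 replicate 3, with 427 CPM, the lowest of the DDR1 group. DDR1 replicate 1 was the highest of the 8 libraries for 104 of the 174 members (59.8%). It was highest for 50.5% of the other chromosome 14 genes and for 14.3% of genes on other chromosomes. Within the controls, which the contrast does not divide, replicate 3 was the lowest of the 4 for 69% of members. The share was 66.3% for the other chromosome 14 genes and 27.9% for genes on other chromosomes. The rest of chromosome 14 had medians of 0.68, 0.25, 0.10 and 0.58 in DDR1 replicates 1 to 4 and 0.14, 0.05, -0.29 and 0.11 in the controls, so there the groups overlapped. Without both DDR1 replicate 1 and control replicate 3, the members' median log2 fold change was 0.20 and 152 of 174 (87.4%) were above 0, against 51.0% on other chromosomes. The choice of these libraries was made after seeing the data, and 16 members then had an unadjusted p under 0.05 in edgeR, where 5.25% of all genes did.

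**Figure D4:**
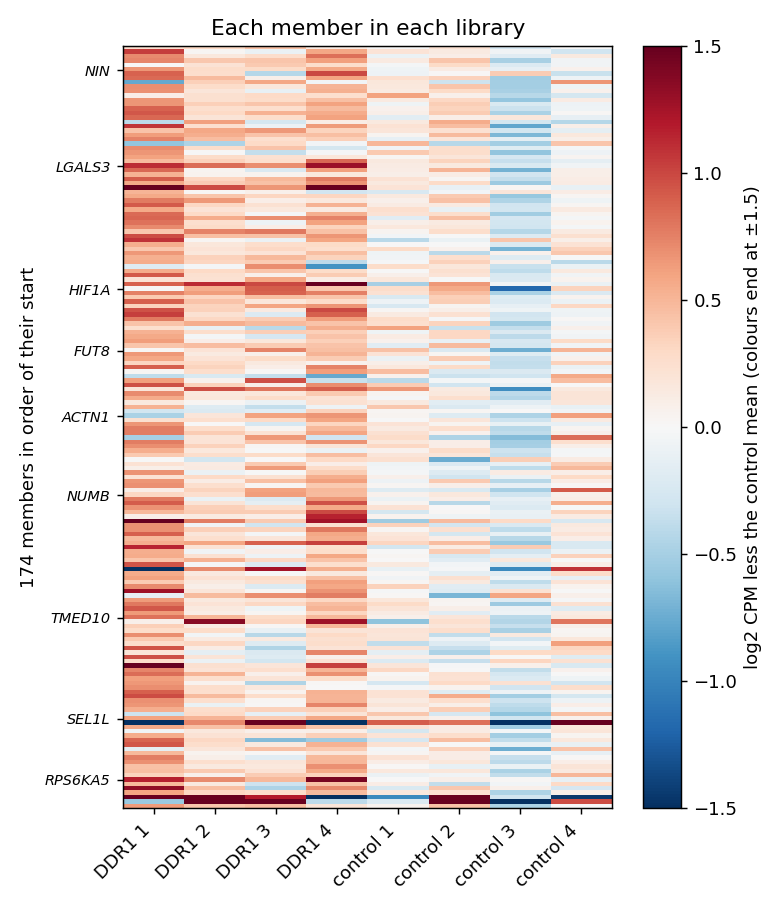
log2 CPM less the gene's mean over the controls for each of the 174 members (down the page, in order of their start) in each library (across, DDR1 on the left). Red is higher and blue lower than the control mean, with colours ending at 1.5 on either side. The strips of DDR1 replicates 1 and 4 are red and that of control replicate 3 is blue over most of the window.

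LGALS3, PELI2 and RPS6KA5 led to the window because they were high in this contrast, so their distance from the neighbours follows in part from that choice and is given as a description. With the library median of the neighbours taken out, in a setting chosen after seeing the data, the DDR1 minus control difference in mean log2 CPM was 0.60 for LGALS3, 0.94 for PELI2 and 0.57 for RPS6KA5. Before that step it was 0.98, 1.32 and 0.95. Of the other members, FBLN5 (0.94), PRKCH (0.75) and PTGR2 (0.67) lay at least as far above the neighbours as LGALS3 after it, each with overlap of the groups. LGALS3 was then 0.50, 0.59, 0.48 and 0.83 above its control mean in DDR1 replicates 1 to 4, against 0.04, 0.03, 0.06 and -0.12 in the controls, so the groups did not overlap. Those of PELI2 did not overlap either, with 0.45 in DDR1 replicate 3 and 0.31 in control replicate 3 as the nearest pair. Those of RPS6KA5 overlapped, since DDR1 replicate 3 stood at 0.27 and control replicate 3 at 0.30. Over all 174 members, the number with no overlap was 3 higher and 2 lower after that step. Those shares are near the 1.27% and 1.13% over all genes as measured, so nothing is read from them. The median SD within groups was 0.22 after the step and 0.29 before it. Part of that fall is built in, since the median taken out comes from 171 of these same genes.

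The nearest members around LGALS3 and PELI2 had these values. WDHD1, a replisome protein, had a log2 fold change of 0.07 (standard error 0.27), SOCS4, a suppressor of cytokine signalling, 0.32 (0.16), and MAPK1IP1L 0.48 (0.20). On the far side of LGALS3 stood DLGAP5, a mitotic spindle protein, at 0.32 (0.30), and FBXO34, an F-box protein, at 0.20 (0.17). ATG14, which starts autophagosome formation, held 48.6, 32.4, 36.4 and 44.5 CPM in DDR1 replicates 1 to 4, against 30.0, 26.5, 20.2 and 27.9 CPM in the controls. Its groups did not overlap and its log2 fold change was 0.63 (standard error 0.19). KTN1, the kinesin-binding protein kinectin, held 540, 476, 494 and 581 CPM in DDR1 replicates 1 to 4, against 402, 444, 249 and 395 CPM in the controls, a log2 fold change of 0.49. Beyond PELI2 came TMEM260 at 0.10, EXOC5, an exocyst subunit, at 0.37, and AP5M1, an adaptor subunit of late endosomes, at 0.42.

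Around RPS6KA5, NRDE2, a nuclear RNA-binding protein, had a log2 fold change of 0.37 (standard error 0.17), and TTC7B 0.26 (0.24). DGLUCY, which overlaps RPS6KA5 head to head on the other strand, stood at 0.20 (0.24), CCDC88C at 0.62 (0.34) and PPP4R3A, a regulatory subunit of protein phosphatase 4, at 0.39 (0.18). The protocols do not mention strand marking, so reads in the short overlap of RPS6KA5 and DGLUCY cannot be told apart. In all, 97 of the 174 members overlap another tested gene, and for 25 the other gene lies on their own strand.

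Ordered by role, no class of members stood far from the common median of 0.37. For every class below, the background over all genes tested is 49.5% above 0 and 4.17% at an unadjusted edgeR p under 0.05. The classes are parts of the window, so their counts are descriptions too. The signalling class includes PELI2 and RPS6KA5 and the adhesion class includes LGALS3, the genes that chose the window on this contrast. Each of them is counted among the genes of its class with an unadjusted edgeR p under 0.05. Of the signalling genes, 18 of 19 were above 0 with a median of 0.39, and 8 had an unadjusted edgeR p under 0.05. PRKCH, protein kinase C eta, held 19.3, 22.8, 20.9 and 30.1 CPM in DDR1 replicates 1 to 4, against 7.37, 16.5, 10 and 9.75 CPM in the controls. The groups did not overlap, and its log2 fold change of 1.09 (standard error 0.27) was 0.72 above the members' median. SIPA1L1, a GTPase-activating protein for Rap, stood at 0.27 and the MLK1 kinase gene MAP3K9 at -0.04.

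Of the adhesion, cytoskeleton and matrix genes, 13 of 13 were above 0 with a median of 0.32 and 5 at an unadjusted p under 0.05. SYNE2, the nuclear envelope protein nesprin 2, held 807, 527, 455 and 822 CPM in DDR1 replicates 1 to 4, against 425, 441, 398 and 397 CPM in the controls. DDR1 replicates 1 and 4 stood far above the rest, and the groups did not overlap. DAAM1, a formin of Wnt planar polarity signalling, had a log2 fold change of 0.58 (standard error 0.19). FBLN5, the elastic fibre protein fibulin 5, had the largest value of the members, 2.14, but with a standard error of 1.18. It held 38.7 CPM in DDR1 replicate 3 and 1.15 to 6.30 CPM in the other DDR1 libraries, against 0.258 to 5.51 CPM in the controls, so 1 library carried it. Without DDR1 replicate 3 its log2 fold change was 0.11.

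Of the transcription factors and cofactors, 14 of 16 were above 0 with a median of 0.36 and 4 at an unadjusted p under 0.05. HIF1A, the oxygen-regulated subunit of hypoxia-inducible factor, held 214, 314, 403 and 283 CPM in DDR1 replicates 1 to 4, against 261, 318, 94.9 and 271 CPM in the controls. The groups overlapped, and control replicate 3 was far below all others. ARID4A, a partner of the retinoblastoma protein, had 0.70 (standard error 0.18) and SNAPC1, a subunit of the complex that starts small nuclear RNA transcription, 0.71 (0.22), both without overlap of the groups. ZFP36L1, a protein that speeds mRNA decay, stood at -0.06 (0.17).

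Genes of translation and RNA processing were alike among themselves. All 12 were above 0, with a median of 0.39 and 3 at an unadjusted p under 0.05. The splicing factors SRSF5 and RBM25 stood at 0.51 (0.21) and 0.44 (0.21). The 3 proteasome genes, PSMA3, PSMC1 and PSMC6, lay at 0.42, 0.40 and 0.38, although they sit far apart in the window.

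Of the genes of the endoplasmic reticulum, 14 of 14 were above 0, with a median of 0.38 and 4 at an unadjusted p under 0.05. SEL1L, the adaptor of the HRD1 ligase that clears misfolded proteins, held 141, 132, 121 and 139 CPM in DDR1 replicates 1 to 4, against 104, 97.8, 75.2 and 97.4 CPM in the controls. Its groups did not overlap, and its log2 fold change was 0.51 (0.15). TMED10, a cargo receptor between this compartment and the Golgi, had 0.52 (0.19), and CNIH1, an export receptor, 0.49 (0.16). ERO1A, the oxidase that helps form disulfide bonds, stood at 0.17 (0.22).

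Mitochondrial and metabolic genes had the highest median of these classes, 0.44, with 17 of 17 above 0 and 2 at an unadjusted p under 0.05. MTHFD1, an enzyme of folate metabolism, stood at 0.56 (0.27) and PYGL, the liver-type glycogen phosphorylase, at 0.51 (0.30). Of the cell division and repair genes, 9 of 10 were above 0, with a median of 0.32 and 1 at an unadjusted p under 0.05. That gene was NIN, the centrosomal protein ninein, at 238, 183, 185 and 224 CPM in DDR1 replicates 1 to 4, against 145, 164, 139 and 158 CPM in the controls. The groups did not overlap. NEK9, a mitotic kinase, stood at 0.29 (0.17).

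Of the vesicle and lysosome genes, 12 of 13 were above 0, with a median of 0.33 and 2 at an unadjusted p under 0.05, ATG14 and NPC2. NPC2, which carries cholesterol out of the lysosome, held 64.1, 68.9, 59.7 and 64.7 CPM in DDR1 replicates 1 to 4, against 48.3, 42.8, 53.9 and 47.8 CPM in the controls. The groups did not overlap, and control replicate 3 was here the highest control. TRIP11, a Golgi tether and the last gene of the window, stood at 0.40 (0.20), and the endocytic adaptor STON2 at -0.03 (0.26).

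Members below 0 were few, 9 in all. TMEM229B had the lowest value, -0.47 (standard error 0.26), with 7.21, 8.03, 7.32 and 5.50 CPM in DDR1 replicates 1 to 4, against 9.80, 7.48, 7.62 and 14 CPM in the controls. FLRT2, a membrane protein of cell guidance, stood at -0.27 with a standard error of 1.35, since it ran from 0.0287 to 16.8 CPM in DDR1 libraries and from 0.172 to 15.1 CPM in controls. SAMD4A, an RNA-binding protein, stood at -0.23 (0.29), SUSD6 at -0.04 (0.36), and ZFP36L1 and MAP3K9 as given above. SIX4, RAD51B and STON2 completed the 9. On the positive side PTGR2, a prostaglandin reductase, had 1.09 (0.36), with the groups overlapping.

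The relatives of the 3 genes on other chromosomes had values on both sides of 0. Of the galectin family list, 6 genes were tested, LGALS3 among them. LGALS1 stood at 0.09 (standard error 0.33), LGALS8 at 0.07 (0.20), LGALS9 at -0.35 (0.50), LGALSL at 0.28 (0.39) and LGALS3BP, which encodes a galectin 3 binding protein, at -0.37 (0.21). The other Pellino genes, PELI1 and PELI3, stood at -0.11 (0.24) and -0.05 (0.26). The receptor complex they act in had IRAK1 at 0.10, IRAK2 at -0.19, IRAK4 at -0.01, MYD88 at -0.34, TRAF6 at 0.01, TAB2 at -0.15 and MAP3K7 at -0.08. RPS6KA4, the gene for MSK2, held 32.4 ± 12 CPM in DDR1 tumours and 32.6 ± 5.36 CPM in controls (SD, n = 4 each). The RSK genes RPS6KA1, RPS6KA2, RPS6KA3 and RPS6KA6 stood at 0.12, -0.55, -0.01 and -0.04. In all of these the groups overlapped.

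Medians over single other chromosomes differed between these libraries too. Those chromosomes were not looked at along their length. The median log2 fold change of the other 22 chromosomes, X included, ran from -0.23 on chromosome 4 to 0.19 on chromosome 22, against 0.39 on chromosome 14. The chromosome 14 values of this comparison include FOS. On chromosome 4, 10.4% of genes were above 0, and on chromosome 22, 80.9%. By library the medians of chromosome 5 reached -0.53 in control replicate 3 and those of chromosome 2 -0.56 in DDR1 replicate 4. The range over the 8 libraries was 0.94 on chromosome 14, 0.86 on chromosome 2, 0.79 on chromosome 5 and 0.11 on chromosome 12. The library medians of the 2 groups overlapped on each of the other 22 chromosomes and did not on chromosome 14, the chromosome that was looked at because of its 3 genes.

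**Figure D5:**
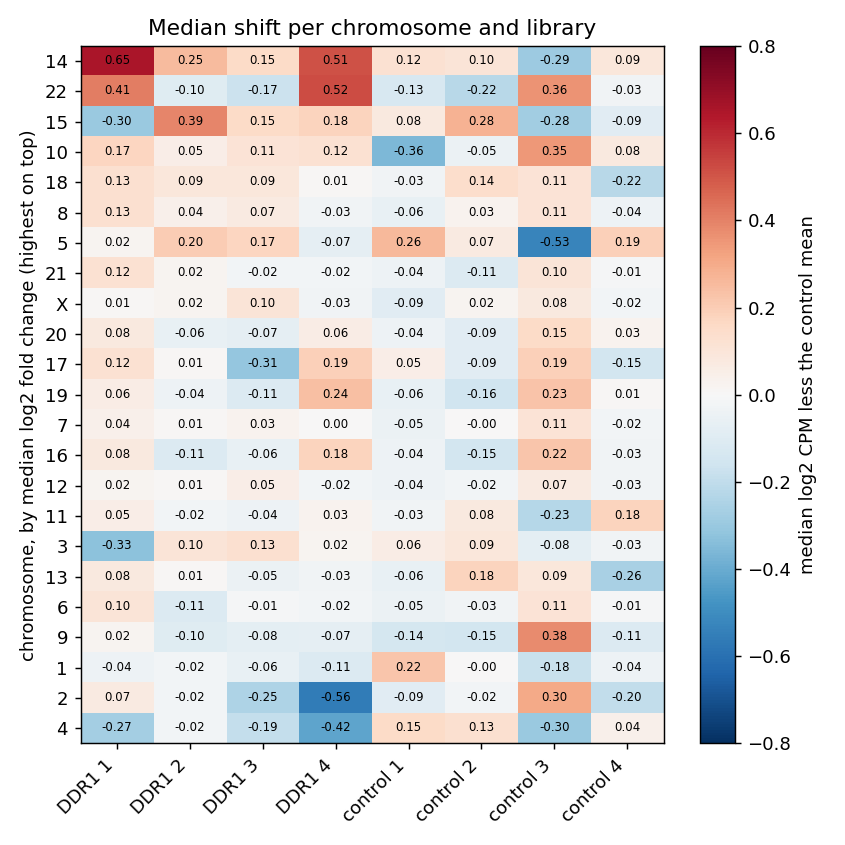
Median over protein-coding genes of at least 5 CPM of log2 CPM less the gene's mean over the controls, for each chromosome (down the page, by median log2 fold change) and library (across, DDR1 on the left). Red is higher and blue lower than the control mean. Chromosome 14, here with FOS included, is at the top. Other chromosomes, with 22, 15, 10, 5, 2, 4, 9 and 17 among them, also differ between libraries of the same group.

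Markers of other cells were detected in part, and their part in the shift was not tested. The summed level of 6 leukocyte markers was 22.8 to 48.6 CPM in DDR1 tumours and 15.5 to 38.8 CPM in controls, with PTPRC, CD3E, LYZ and MS4A1 under 1 CPM in every library. The other leukocyte markers, CD68 and CD14, had log2 fold changes of 0.66 (standard error 0.42) and 0.49 (0.41). CD68, a lysosomal protein of macrophages, held 25.8, 18.1, 29.8 and 46.3 CPM in DDR1 replicates 1 to 4, against 12.8, 11.9, 37 and 14.2 CPM in the controls. The summed level of 4 endothelial markers was 9.05 to 76.1 CPM in DDR1 tumours and 8.61 to 55.8 CPM in controls, with KDR under 1 CPM. PECAM1, VWF and CDH5 had log2 fold changes of 0.59 (0.45), 0.97 (0.54) and 0.66 (1.01). CDH5, the cadherin of endothelial junctions, held 2.82, 28, 20.8 and 51.1 CPM in DDR1 replicates 1 to 4, against 2.60, 19.3, 1.64 and 41.5 CPM in the controls. The groups overlapped for each of these 5 leukocyte and endothelial genes. The summed level of 6 fibroblast markers was 3.65 to 38.7 CPM in DDR1 tumours and 9 to 44 CPM in controls, with COL1A2, DCN and LUM under 1 CPM. COL1A1, PDGFRB and COL3A1 had log2 fold changes of -0.71 (0.45), -0.31 (0.74) and 0.43 (1.45). The 3 haemoglobin genes were under 1 CPM in every library, HBB at 0. All 7 markers chosen for the T24 line were detected, at 1309 to 3745 CPM in DDR1 tumours and 1669 to 2376 CPM in controls. In bulk tumours fewer cells of a kind and less RNA per cell cannot be told apart.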

How the data were processed

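RNA of homogenised tumours was sequenced after poly-T selection, per the labels' protocols. The authors deposited expected counts per gene. The submitters' processing notes name FastQC 0.11.9, Trim Galore 0.6.4, STAR 2.7.5, RSEM 1.3.1 and GRCh38, without settings. The treatment of mouse reads is not given in the sources used here, and reads of mouse cells that align to human genes would add to their values. The authors also deposited a TMM-normalized log2 table, used as an alternative, and single-library files that repeat it.

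Of 58302 gene IDs, 58039 matched GENCODE 29 (GRCh38). Expected counts were rounded (26.5% of values above 0 were not whole). edgeR 4.0.16 (R 4.3.3) used filterByExpr (minimum count 10), TMM and the quasi-likelihood test over all 8 libraries, with Benjamini-Hochberg adjustment over 18973 genes. log2 CPM used a prior count of 2. Standard errors are the log2 fold change over the root of F. DESeq2 1.42.0 and limma 3.58.1 were alternatives. The edgeR step was tested on simulated counts. Libraries were grouped by the condition label, and replicate numbers only name them.

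The members and gene lists were chosen with earlier results of these data known. Named genes were the 3 that chose the window, their nearest 3 members on each side, the 6 largest values in each direction, the 12 members without overlap and with the smallest p, the most abundant pair of each list, DESeq2 calls, and the families' tested members, 48 members in all, with 1 further gene not reported here. Genes named beyond that were chosen after their values were seen.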

Additional observations from a re-analysis of the deposited data

Results flagged for a closer look

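Within each group of 4 libraries, a library was looked at again where its gap to the nearest other, over the group's range, exceeded Dixon's critical value for 95%. Of 100 such groups, over the medians and the 48 named members, 6 met this, where chance gives about 5%. Control replicate 3 gave 3 of them. Its median of the neighbours was -0.28, with the other controls between 0.07 and 0.12. In the same library FBXO34 stood at 24.5 CPM, against 31.7 to 32.3 CPM in the other controls. PSMC1 stood there at 54.7 CPM, against 77.3 to 81.0 CPM.

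In the DDR1 group, ZFP36L1 stood at 119 CPM in replicate 4, against 77.5 to 83.1 CPM in the other DDR1 libraries. TTC7B stood at 7.85 CPM in replicate 2, against 9.46 to 9.71 CPM. FBLN5 stood at 38.7 CPM in replicate 3, against 1.15 to 6.30 CPM.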

How the results depend on the processing

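Under 7 other scalings, tools, filters and tables, the members' median log2 fold change ran from 0.36 to 0.39 and 165 to 168 of 174 were above 0. With 1 library left out, it ran from 0.27 (without control replicate 3) to 0.43, and from 0.27 to 0.43 without the 3 genes, with 159 to 168 above 0. It was 0.51 without the controls of lane 7 and 0.28 without those with no lane. The count at an unadjusted edgeR p under 0.05 was 45 with all libraries (4.17% of all genes in either direction). With 1 library left out, the lowest count was 23, without the library labelled DDR1 replicate 1 (4.76% of all genes). The highest was 60, without control replicate 2 (6.26%). Without DDR1 replicate 4 it was 24 (2.56%), and without control replicate 3 it was 25 (4.98%). It was 12 without the controls with no lane (2.97%). Without both DDR1 replicate 1 and control replicate 3 it was 16 (5.25%). DESeq2 called 16 genes where edgeR, limma-voom and limma-trend called 0. Members at a minimum of 1 or 20 CPM, and genes within 2 Mb of the 3, had medians of 0.36, 0.37 and 0.40. The 2 Mb limit left 38 of 39 genes above 0 and 11 at an unadjusted p under 0.05. The whole of chromosome 14 gave 346 of 364 and 86, since these settings change the number of genes. The shares over all genes for these 2 settings stay 49.5% and 4.17%. LGALS3 ran from 0.87 to 1.17, PELI2 from 1.19 to 1.60 and RPS6KA5 from 0.82 to 1.13. No paired analysis was possible because the labels give no replicate numbers that the groups share.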

Other observations

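Genes of the window outside the rule had smaller medians. The 37 tested protein-coding genes under 5 CPM had a median log2 fold change of 0.25, with 24 above 0. The 69 tested genes of the window that are not protein-coding had a median of 0.26, with 54 above 0. On the 5 CPM limit itself, RAB15 (5.60 CPM), GPR135 (5.74 CPM) and ACYP1 (6.20 CPM) lay just inside, and RHOJ (4.82 CPM), DPF3 (4.74 CPM) and VCPKMT (4.70 CPM) just outside.

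Chromosome 22 had medians of 0.41, -0.10, -0.17 and 0.52 in DDR1 replicates 1 to 4, against -0.13, -0.22, 0.36 and -0.03 in control replicates 1 to 4. Chromosome 4 had -0.27, -0.02, -0.19 and -0.42 in DDR1 replicates 1 to 4, against 0.15, 0.13, -0.30 and 0.04 in the controls. On chromosome 22, control replicates 1, 3 and 4 lay inside the range of the DDR1 group. On chromosome 4 only control replicate 3 did.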
